A study of Mus musculus with 20 samples.

Results

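Axon guidance ligands and receptors were followed across mouse ear pinnae injected with PBS, IL-4, IL-13 or IL-31. Members were taken by gene symbol: semaphorins (Sema3 to Sema7), plexins, Slits, Robos, netrins, Unc5 receptors, ephrins and Eph receptors, plus Nrp1, Nrp2, Ntn1, Ntn4 and Dcc. The rule found 62 of the 16669 genes in the table, and it used no expression value. There were 19 semaphorins, 9 plexins, 2 neuropilins, 3 Slits, 3 Robos, 4 netrins, 3 Unc5 receptors, 5 ephrin-A and 3 ephrin-B ligands, and 5 EphA and 5 EphB receptors. The remaining gene, Unc50, matched by its spelling only and is no netrin receptor, which leaves 61 guidance genes. A further 12 names that fit the rule, among them Dcc, Robo3, Unc5d, Sema5b and 4 EphA genes, were not analysed here.

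The series title names type 2 cytokines, sensory nerve architecture and itch as its subject. Each cytokine was given at 0.1 µg/µl in 10 µl, dissolved in PBS and injected into the dermis of the right ear, and the control ears received PBS, whose volume the labels do not give. Each of the 4 groups held 5 libraries. Strain, genotype, age and the time between injection and harvest were not given in the sources used here. The labels do not say that the 5 libraries of a group came from separate animals, and p-values therefore reflect only the spread among these libraries, which may be partly technical.

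Guidance cues are secreted or membrane-bound proteins that attract or repel growing axons. Semaphorins signal through plexins, with neuropilins as co-receptors for most class 3 members, and Slits signal through Robo receptors. Netrins such as Ntn1 signal through Dcc and Unc5 receptors, and ephrins through Eph tyrosine kinases in contacts between cells. In skin the same families also act in epithelium and blood vessels, and class 3 semaphorins are known to repel cutaneous sensory fibres.

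The start sites of a few members that rose or fell are shown first, from promoter windows in RefSeq (GRCm38.p6). Other called members, among them Sema6b, Sema6c and Plxnd1, also have windows, which are not shown. Each window runs from 250 bases before to 50 bases after the transcription start and is written 5′ to 3′ on the strand of the gene. Capitals mark matches, on either strand, to TTCNNNNGAA (the spacing preferred by STAT6, the transcription factor downstream of IL-4 and IL-13), TTCNNNGAA (the spacing of other STAT factors) or GGGCGG (a GC box). Robo2 is shown at chr16:74411776-74412075 on the minus strand, the window that starts where its gene model begins, and it held no match. The other Robo2 windows, at chr16:75092721-75093020 and chr16:75447244-75447543, held no match either. Nrp1 lies at chr8:128358823-128359122 on the plus strand, with a GC box at -98 (the first base of a match, counted from the start). Efnb1 lies at chrX:99135811-99136110 on the plus strand, with a TTCNNNNGAA match at -183. Efna3 is shown at chr3:89322890-89323189 on the minus strand, with a TTCNNNGAA match at -217 and 3 GC boxes. Its other window, at chr3:89321719-89322018, held 3 GC boxes and no TTCNNNGAA match. Of the members called changed below that have a window, only Efnb1 and Efna3 held a match to either STAT spacing. The windows shown therefore do not represent the others.
Robo2: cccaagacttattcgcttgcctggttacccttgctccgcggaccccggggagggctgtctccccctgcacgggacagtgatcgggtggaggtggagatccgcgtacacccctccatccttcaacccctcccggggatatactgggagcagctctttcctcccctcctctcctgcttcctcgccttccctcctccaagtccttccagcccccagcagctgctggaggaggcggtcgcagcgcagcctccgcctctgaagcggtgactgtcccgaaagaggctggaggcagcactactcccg
Nrp1: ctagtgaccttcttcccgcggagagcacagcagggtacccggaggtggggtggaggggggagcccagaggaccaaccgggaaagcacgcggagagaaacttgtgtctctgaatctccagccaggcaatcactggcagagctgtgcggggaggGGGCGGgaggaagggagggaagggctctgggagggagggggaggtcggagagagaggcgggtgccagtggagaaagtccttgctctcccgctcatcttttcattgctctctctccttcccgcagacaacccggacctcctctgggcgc
Efnb1: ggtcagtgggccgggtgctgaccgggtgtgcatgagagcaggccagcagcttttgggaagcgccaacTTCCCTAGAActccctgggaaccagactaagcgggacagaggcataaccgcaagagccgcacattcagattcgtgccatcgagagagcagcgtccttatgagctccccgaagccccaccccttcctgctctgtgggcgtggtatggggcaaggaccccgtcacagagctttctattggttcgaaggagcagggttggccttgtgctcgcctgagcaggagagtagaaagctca
Efna3: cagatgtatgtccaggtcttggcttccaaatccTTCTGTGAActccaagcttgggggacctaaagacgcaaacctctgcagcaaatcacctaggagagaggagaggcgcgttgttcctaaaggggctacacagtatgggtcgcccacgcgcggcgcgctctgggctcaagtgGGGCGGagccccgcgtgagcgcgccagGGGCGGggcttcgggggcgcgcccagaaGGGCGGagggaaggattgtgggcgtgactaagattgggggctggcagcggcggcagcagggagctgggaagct

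Promoter windows were used for 54 of the 62 members, 70 windows in all. Members on chromosome 18 (Sema6a) were left out, while the windows of all genes kept that chromosome. TTCNNNNGAA occurred in 5 of the 70 (7.14%), against 6.95% of the 32851 windows of all genes. TTCNNNGAA occurred in 3 (4.29%) against 8.3%, and TGANTCA, an AP-1-type motif, in 3 (4.29%) against 7.81%. GGGCGG occurred in 49 (70%) against 35.7%. These matches describe the letters of the windows and do not show binding.

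Before the comparisons, the libraries were described by depth and by marker genes, because an ear pinna mixes several tissues. The steps of low values gave effective library sizes of 6 to 23.73 M reads (M, mega; median 12.92), so 3 reads were worth 0.126 to 0.5 CPM (reads scaled to library size). All 12 basal and all 25 suprabasal epidermal markers were present, with median levels of 9.06 and 8.39 log2 CPM, as were all 12 fibroblast, 21 endothelial, 24 skeletal muscle and 14 Schwann cell markers. Of 14 axonal transcripts, 5 were in the table. PBS libraries 1, 2 and 3 stood apart: their suprabasal epidermal scores (mean log2 CPM centred per gene) were the lowest 3 of the 20 libraries, within a PBS range of -2.11 to 0.163 against -0.399 to 0.628 in IL-4, -0.302 to 1.01 in IL-13 and 0.0365 to 0.698 in IL-31. Skeletal muscle scores were 0.826 to 2.62 in PBS, -2.95 to 0.0163 in IL-4, -1.88 to 0.326 in IL-13 and -0.656 to 1.3 in IL-31, so muscle content and group cannot be told apart for IL-4 and IL-13. Endothelial scores were 0.0399 to 0.654 in PBS, -0.856 to 0.146 in IL-4, -0.767 to 0.0082 in IL-13 and -0.0721 to 0.406 in IL-31. In such bulk libraries, fewer cells of a type and less RNA per cell cannot be told apart.

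**Figure D1:**
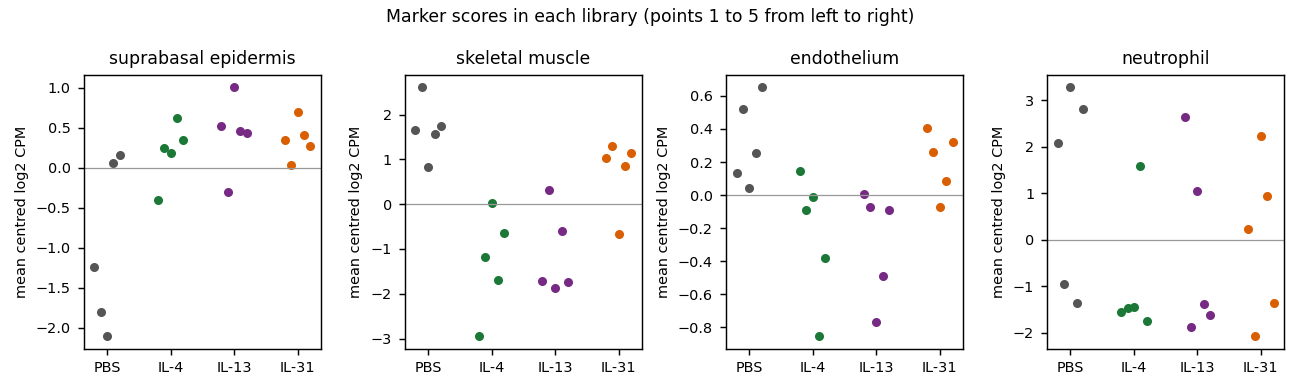
Marker scores by library: each point is 1 of 5 libraries of a group, and the vertical axis is the mean log2 CPM of a marker list centred per gene. PBS libraries 1 to 3 lie lowest in the suprabasal epidermal panel, and the muscle scores of PBS (0.826 to 2.62) lie above those of IL-4 (highest 0.0163) and IL-13 (highest 0.326).

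Levels were compared between members as CPM per kilobase of exon, averaged over the 20 libraries, and they covered a wide range. Single ephrins, B-type plexins and Eph receptors led, while others of the same families stood low. Efnb3 had 0.866, Plxnb3 0.424 and Ephb1 0.245 CPM per kb. Efna3, a membrane-anchored ephrin-A ligand, stood highest at 59.7 CPM per kb, followed by Ephb6, a kinase-inactive Eph receptor, at 53.2. Next came Efna1 at 41.0, Plxnb2 at 32.7 and Plxnb1 at 32.5, and Epha7 was lowest at 0.125. Neighbours in this order often did not differ beyond their spread: in PBS, Efna3 had 35.7 ± 15.1, Ephb6 41.8 ± 9.35, Efna1 35.4 ± 6.41 and Plxnb1 34.9 ± 8.36 CPM per kb (SD, n = 5).

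The highest member of each other family was lower. Sema3f, a secreted semaphorin that signals through Nrp2, had 29.0 CPM per kb, Epha1 30.5, Efnb1 19.4 and Unc5b 10.4. Slit3 led the Slits at 6.35 and Ntn1, the classical secreted netrin, led the netrins at 4.98. The receptors Nrp2 (2.79), Robo1 (2.71), Nrp1 (1.68) and Robo2 (1.08) were in the lower part of the order, Nrp1 at place 40 and Robo2 at place 45 of 62. On this scale Robo2 was 0.776 ± 0.0656 CPM per kb in PBS, 1.33 ± 0.101 in IL-4, 1.10 ± 0.0990 in IL-13 and 1.13 ± 0.239 in IL-31 (SD, n = 5). Nrp1 went the other way, from 2.39 ± 0.426 in PBS to 1.20 ± 0.275 in IL-4, 1.36 ± 0.257 in IL-13 and 1.79 ± 0.430 in IL-31.

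**Figure D2:**
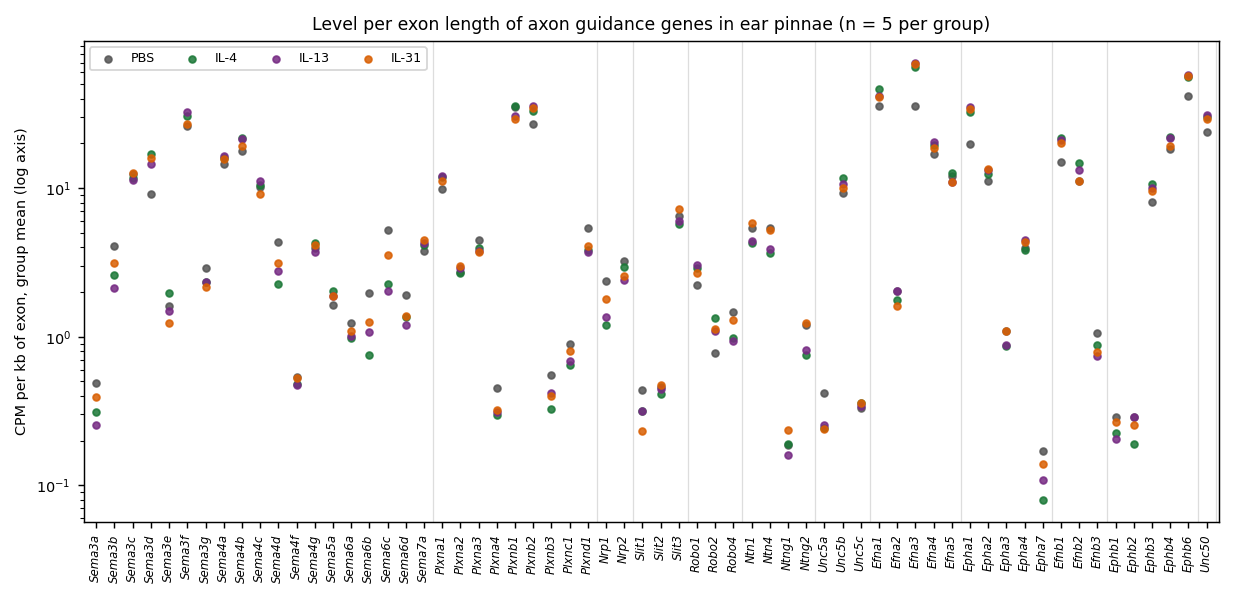
Level of each of the 62 members as CPM per kilobase of exon (log axis), by family, with a point per group mean. Efna3, Ephb6 and Efna1 lie highest and Epha7 lowest, with Nrp1 and Robo2 in the lower part.

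All 62 members passed the filter on low values. A gene was called changed at a Benjamini-Hochberg adjusted p under 0.05 in limma over all 16461 genes tested, and differences below are in log2 CPM, with standard errors after ±. A lone value in parentheses after a difference is its adjusted p. After IL-4, 16 members changed (25.8%, against 17.8% of all genes), 11 higher (all genes 8.22%) and 5 lower (9.63%). After IL-13, 20 changed (32.3%, against 19.7%), 12 higher including Unc50 (9.94%) and 8 lower (9.8%). After IL-31, 6 changed (9.68%, against 6.38%), and these 6 were higher (5.18%) while none fell (1.2%). The median over the 62 members was near that of all genes in each comparison: -0.056 against -0.016 for IL-4, -0.077 against -0.028 for IL-13 and 0.041 against -0.045 for IL-31.

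Over all members, groups did not overlap for 9 after IL-4 (8.53% of all genes), 4 higher (2.64%) and 5 lower (5.89%). After IL-13 they did not overlap for 5 (7.52%), 2 higher (2.52%) and 3 lower (5.01%), and after IL-31 for 3 (4.36%), 2 higher (2.93%) and 1 lower (1.43%). At an unadjusted p under 0.05 the members numbered 34 after IL-4 (31.5% of all genes), 27 after IL-13 (33.7%) and 18 after IL-31 (23.8%), which is 54.8%, 43.5% and 29% of the 62.

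The 3 comparisons share the 5 PBS libraries, so they are given side by side and not as independent evidence. Efna3, Efnb1, Epha1, Ephb6, Robo2 and Sema3d were called higher after each cytokine. Ephb3, Robo1 and Sema4b were called higher after IL-4 and IL-13, and Nrp1, Plxnd1, Sema6b and Sema6c lower after both. Another 10 were called in a single comparison and 39 in none. Without PBS libraries 1, 2 and 3, which leaves 2 PBS libraries, 9 members were called after IL-4 (all genes 7.29%), of which 6 were among the 16: Efna1, Nrp1, Robo2, Sema4b, Sema6b and Unc5b. In the same setting 4 were called after IL-13 (2.34%), of which Nrp1, Sema3f and Sema6d were among the 20, and 0 after IL-31. The called differences kept their sign there in 16 of 16, 20 of 20 and 6 of 6 cases. With the muscle score as a covariate none of the calls held. With the suprabasal epidermal score, 7 of the 16 IL-4 calls held and none of the others, and with the endothelial score 3 of the 16 (Efnb1, Robo2 and Sema6b), 0 of the 20 and 6 of the 6.

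**Figure D3:**
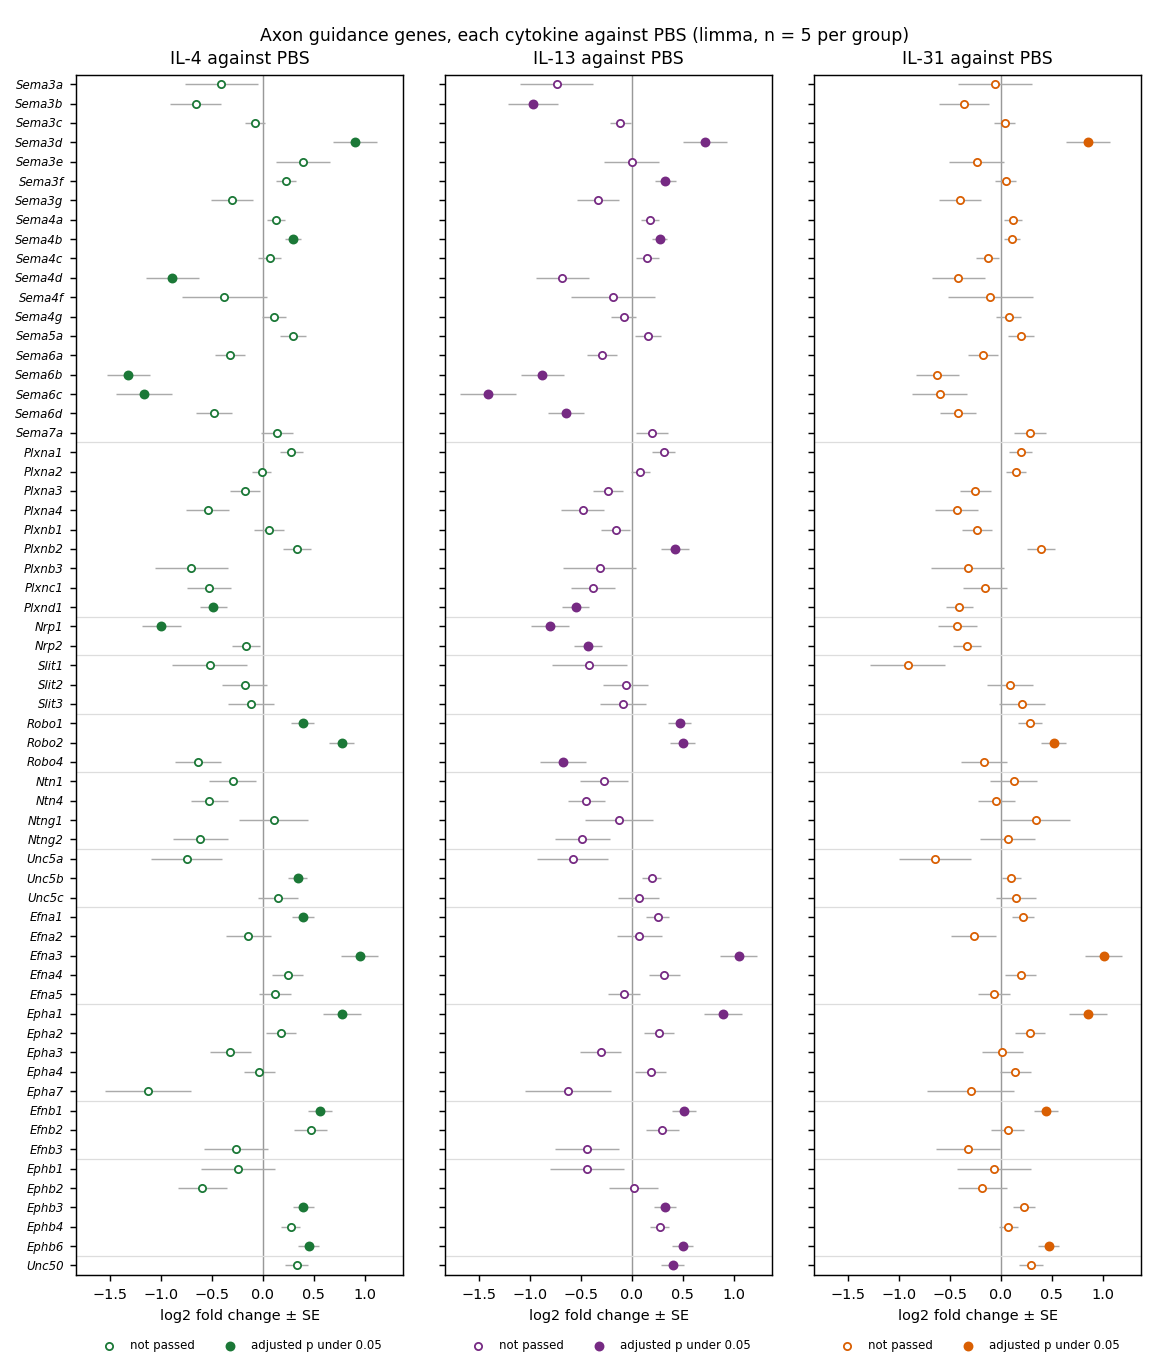
Difference in log2 CPM between each cytokine and PBS for the 62 members, by family, with filled points for members called changed. Robo2, Efna3 and Epha1 lie to the right in each comparison, and Nrp1, Sema6b and Sema6c to the left after IL-4 and IL-13.

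The 3 Slit ligands were not called in any comparison of the main fit. Of the 3 Robos, 2 were called after IL-4, 3 after IL-13 and 1 after IL-31, beside 17.8%, 19.7% and 6.38% of all genes. Slit1, Slit2 and Slit3 had differences of -0.52, -0.18 and -0.12 after IL-4 and -0.42, -0.062 and -0.086 after IL-13. After IL-31 they were -0.91, 0.087 and 0.21. At an unadjusted p under 0.05 in limma there were 0, 0 and 1 Slits after IL-4, IL-13 and IL-31. Slit1 was the least expressed of the Slit ligands, at 0.325 CPM per kb, and was called lower after IL-31 with the neutrophil score as a covariate.

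Robo2, a transmembrane Slit receptor of neurons, is encoded on the minus strand of chr16:73891839-74411825 (GRCm38). Its PBS libraries 1 to 5 gave 3.88, 3.62, 3.83, 3.70 and 3.62 log2 CPM. The IL-4 libraries gave 4.49, 4.65, 4.56, 4.44 and 4.38. IL-13 gave 4.13, 4.34, 4.06, 4.27 and 4.36, and IL-31 gave 3.97, 4.56, 4.04, 4.09 and 4.58. Every cytokine library lay above every PBS library, and the 5 IL-4 libraries also lay above the 5 IL-13 libraries.

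Robo2 was 1.71-fold higher after IL-4 (0.77 ± 0.12, adjusted p = 0.00107), 1.41-fold after IL-13 (0.50 ± 0.12, adjusted p = 0.00796) and 1.43-fold after IL-31 (0.52 ± 0.12, adjusted p = 0.0223). With PBS libraries 1 to 3 left out the IL-4 difference was 0.84 (adjusted p = 0.0130), the IL-13 difference 0.57 (0.0612) and the IL-31 difference 0.59 (0.604). The IL-4 call held without any single library of the 2 groups and with the suprabasal epidermal score (0.90, adjusted p = 0.00673) or the endothelial score (0.82, adjusted p = 0.0250) as a covariate, but not with the muscle score (0.92, adjusted p = 0.102). The IL-31 call was lost without any 1 of PBS libraries 1, 2 and 3 or IL-31 libraries 3 and 5.

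Robo1, the broadly expressed paralog, rose after IL-4 (0.39 ± 0.11, adjusted p = 0.0238) and IL-13 (0.47 ± 0.11, adjusted p = 0.00858), with 0.28 after IL-31 (0.137). Its IL-4 call was lost without PBS library 1 or 3 or IL-4 library 4 or 5. Both Robo1 calls ended without PBS libraries 1 to 3 (0.19, adjusted p = 0.410, and 0.27, 0.299) and with the epidermal score as a covariate (0.16, adjusted p = 0.381, and 0.19, 0.420). Robo4, an endothelial Robo and itself 1 of the 21 endothelial markers, fell after IL-13 (-0.68 ± 0.23, adjusted p = 0.0408), with -0.64 after IL-4 (0.0562) and -0.17 after IL-31 (0.665). The Robo4 call was lost without PBS library 1, 2 or 3 or IL-13 library 1, 3 or 4. So 2 of 3 Robos rose and 1 fell after IL-13, where 9.94% of all genes were called higher and 9.8% lower.

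Among neuropilins, co-receptors for class 3 semaphorins and for VEGF, Nrp1 fell after IL-4 and IL-13. Nrp1, on the plus strand of chr8:128358604-128503363, read 4.45, 4.72, 4.09, 4.64 and 4.77 log2 CPM in PBS libraries 1 to 5. Under IL-4 the values were 3.48, 3.69, 3.97, 3.50 and 3.06. Under IL-13 they were 3.62, 3.70, 3.37, 3.89 and 4.08, and under IL-31 4.52, 4.33, 3.84, 3.66 and 4.18. The IL-4 and IL-13 libraries all lay below the lowest PBS library, while the IL-31 libraries overlapped it.

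Nrp1 fell to 0.502 of the PBS level after IL-4 (-0.99 ± 0.19, adjusted p = 0.00234) and to 0.573 after IL-13 (-0.80 ± 0.19, adjusted p = 0.00669). The IL-31 difference was -0.43 ± 0.19 (adjusted p = 0.174). Leaving out PBS libraries 1 to 3 gave -1.17 (adjusted p = 0.0153), -0.97 (0.0458) and -0.60 (0.645). Both calls held without any single library. With the endothelial score as a covariate the IL-4 and IL-13 differences were -0.68 (adjusted p = 0.0799) and -0.46 (0.215). Endothelial markers moved in the same samples: 4 of 21 fell after IL-4 (median -0.60), 10 of 21 after IL-13 (median -0.66) and 0 of 21 after IL-31 (median -0.17). Those counts are 19%, 47.6% and 0%, against 9.63%, 9.8% and 1.2% of all genes called lower. Nrp2, the paralog that binds Sema3f, fell after IL-13 (-0.43 ± 0.14, adjusted p = 0.0312), a call that was lost without PBS library 2 or 3 or IL-13 library 3, 4 or 5. Its differences after IL-4 and IL-31 were -0.16 (0.448) and -0.34 (0.139).

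Of the 9 plexins, the semaphorin receptors, Plxnd1 fell after IL-4 and IL-13 and Plxnb2 rose after IL-13. The shares changed after IL-4, IL-13 and IL-31 were 11.1%, 22.2% and 0%, against 17.8%, 19.7% and 6.38% of all genes. Plxnd1, a plexin of endothelium and the receptor of Sema3e, gave 5.18, 5.54, 5.20, 5.19 and 5.36 log2 CPM in PBS. It gave 4.92, 4.64, 4.97, 4.59 and 4.91 in IL-4 and 5.06, 4.74, 4.29, 4.75 and 4.87 in IL-13. The IL-31 values were 5.12, 4.91, 5.08, 4.55 and 4.77. All 15 cytokine libraries were below all 5 PBS libraries.

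The Plxnd1 differences were -0.49 ± 0.13 after IL-4 (adjusted p = 0.0174), -0.55 ± 0.13 after IL-13 (adjusted p = 0.00809) and -0.41 ± 0.13 after IL-31 (adjusted p = 0.0721). The IL-4 call was lost without PBS library 2 or IL-4 library 4. With the endothelial score as a covariate the IL-4 and IL-13 differences were -0.24 (adjusted p = 0.337) and -0.29 (0.256). Plxnb2, a receptor for class 4 semaphorins in epithelium, rose after IL-13 (0.42 ± 0.14, adjusted p = 0.0347), with 0.33 after IL-4 (0.0992) and 0.40 after IL-31 (0.0858). Its IL-13 difference was 0.029 without PBS libraries 1 to 3 (adjusted p = 0.928) and -0.061 with the suprabasal epidermal score as a covariate (0.735), so its sign turned with that covariate. Leaving out PBS library 1, 2 or 3, or IL-13 library 1, 3, 4 or 5, also ended the call. The other 7 plexins were not called.

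The 19 semaphorins, the ligands of these receptors, moved in both directions: 2 rose and 3 fell after IL-4, 3 rose and 4 fell after IL-13, and 1 rose after IL-31. The shares changed were 26.3%, 36.8% and 5.26% of the semaphorins, against 17.8%, 19.7% and 6.38% of all genes. The semaphorin that fell most was a transmembrane class 6 gene in both comparisons, Sema6b after IL-4 and Sema6c after IL-13. Sema6b gave 3.03, 2.89, 2.90, 2.53 and 3.46 log2 CPM in PBS and 1.83, 1.31, 1.75, 1.56 and 1.78 in IL-4. It gave 2.47, 2.61, 1.66, 1.77 and 1.91 in IL-13 and 2.41, 2.43, 2.28, 2.70 and 1.89 in IL-31. The IL-4 libraries lay below every PBS and every IL-31 library.

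Sema6b fell to 0.401 of the PBS level after IL-4 (-1.32 ± 0.21, adjusted p = 0.00118) and to 0.544 after IL-13 (-0.88 ± 0.21, adjusted p = 0.00799), with -0.62 ± 0.21 after IL-31 (0.0830). Its IL-4 call held without PBS libraries 1 to 3 (-1.35, adjusted p = 0.0191) and with the endothelial score as a covariate (-1.07, adjusted p = 0.0475). The IL-13 value without PBS libraries 1 to 3 was -0.91 (adjusted p = 0.0970).

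Sema6c, another class 6 member, gave 4.75, 5.47, 4.97, 5.03 and 4.41 log2 CPM in PBS and 4.01, 3.91, 3.79, 3.51 and 3.58 in IL-4. It gave 3.26, 4.22, 2.78, 3.85 and 3.47 in IL-13 and 4.63, 4.84, 3.30, 4.29 and 4.56 in IL-31. The IL-4 and IL-13 libraries lay below every PBS library, and so did IL-31 libraries 3 and 4. Sema6c fell to 0.446 of PBS after IL-4 (-1.17 ± 0.27, adjusted p = 0.00728) and to 0.376 after IL-13 (-1.41 ± 0.27, adjusted p = 0.00260), with -0.60 after IL-31 (0.185). All 24 muscle markers fell after IL-4 and after IL-13 (medians -2.71 and -2.63) and 0 of 24 were called after IL-31 (median -0.91). With the muscle score as a covariate the Sema6c differences were -0.27 (adjusted p = 0.823) and -0.56 (0.568), and without PBS libraries 1 to 3 they were -0.96 (0.114) and -1.21 (0.0734).

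Sema6d, the third class 6 gene called, fell after IL-13 (-0.64 ± 0.18, adjusted p = 0.0153), with -0.48 after IL-4 (0.0648). It was -0.83 without PBS libraries 1 to 3 (adjusted p = 0.0414), and the call was lost without IL-13 library 3 and with the endothelial score as a covariate (-0.30, adjusted p = 0.378). Sema4d, a ligand of Plxnb1 that is abundant on leukocytes, fell after IL-4 (-0.89 ± 0.26, adjusted p = 0.0233), a call lost without PBS library 3 or IL-4 library 5. Monocyte and macrophage markers fell beside it, 8 of 18 after IL-4, 6 of 18 after IL-13 and 0 of 18 after IL-31, and their part in the Sema4d result was not tested. Those counts are 44.4%, 33.3% and 0%, against 9.63%, 9.8% and 1.2% of all genes called lower. The Sema4d difference after IL-4 was -0.42 with the neutrophil score as a covariate (adjusted p = 0.0228) and -0.73 without PBS libraries 1 to 3 (0.197). It was -0.49 without libraries of neutrophil score above 0 (0.0581), which left 2 PBS, 4 IL-4, 3 IL-13 and 2 IL-31 libraries. Sema3b, a secreted class 3 ligand, fell after IL-13 (-0.97 ± 0.25, adjusted p = 0.0106), with -0.66 after IL-4 (0.0710) and -0.89 after IL-13 without PBS libraries 1 to 3 (0.133). The IL-13 difference of Sema3b was -0.31 with the muscle score as a covariate (adjusted p = 0.774), -0.44 with the epidermal score (0.430) and -0.47 with the endothelial score (0.314).

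Semaphorins that rose were Sema4b, Sema3d and Sema3f. Sema4b, a transmembrane class 4 member, gave 6.72, 6.69, 6.63, 6.73 and 6.44 log2 CPM in PBS. It gave 6.91, 7.03, 7.03, 6.80 and 6.90 in IL-4 and 6.80, 6.82, 7.05, 7.01 and 6.88 in IL-13. The IL-31 values, 6.57, 6.86, 6.81, 6.86 and 6.67, overlapped PBS, while those of IL-4 and IL-13 did not. The rises were small, 1.23-fold after IL-4 (0.29 ± 0.078, adjusted p = 0.0139) and 1.21-fold after IL-13 (0.27 ± 0.078, adjusted p = 0.0195). The IL-4 call held without PBS libraries 1 to 3 (0.35, adjusted p = 0.0492), and the IL-13 call was lost there (0.33, adjusted p = 0.0855) and without IL-13 library 3 or 4. Quantile normalization (0.23, adjusted p = 0.0523) and a fit of only the 2 groups (0.0583) ended the IL-4 call. So did the endothelial score as a covariate (0.23, 0.179) and leaving out libraries of neutrophil score above 0 (0.26, 0.0945).

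Sema3d, a secreted class 3 semaphorin, was 1.87-fold higher after IL-4 (0.90 ± 0.22, adjusted p = 0.00816), 1.64-fold after IL-13 (0.71, adjusted p = 0.0250) and 1.81-fold after IL-31 (0.86, adjusted p = 0.0273). PBS library 4, at 6.96, reached the cytokine groups, and the other PBS libraries lay at 5.79 to 6.31. Without PBS libraries 1 to 3 the differences were 0.49, 0.31 and 0.45 (adjusted p = 0.258, 0.571 and 0.701). Its IL-13 call also ended without PBS library 1, 2 or 3, or IL-13 library 4 or 5. Sema3f rose after IL-13 (0.33 ± 0.10, adjusted p = 0.0295), and its difference there was 0.46 without PBS libraries 1 to 3 (adjusted p = 0.0305). That call ended without PBS library 2, 3 or 4, or IL-13 library 3 or 4, and with the endothelial score as a covariate (0.16, adjusted p = 0.457).

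**Figure D4:**
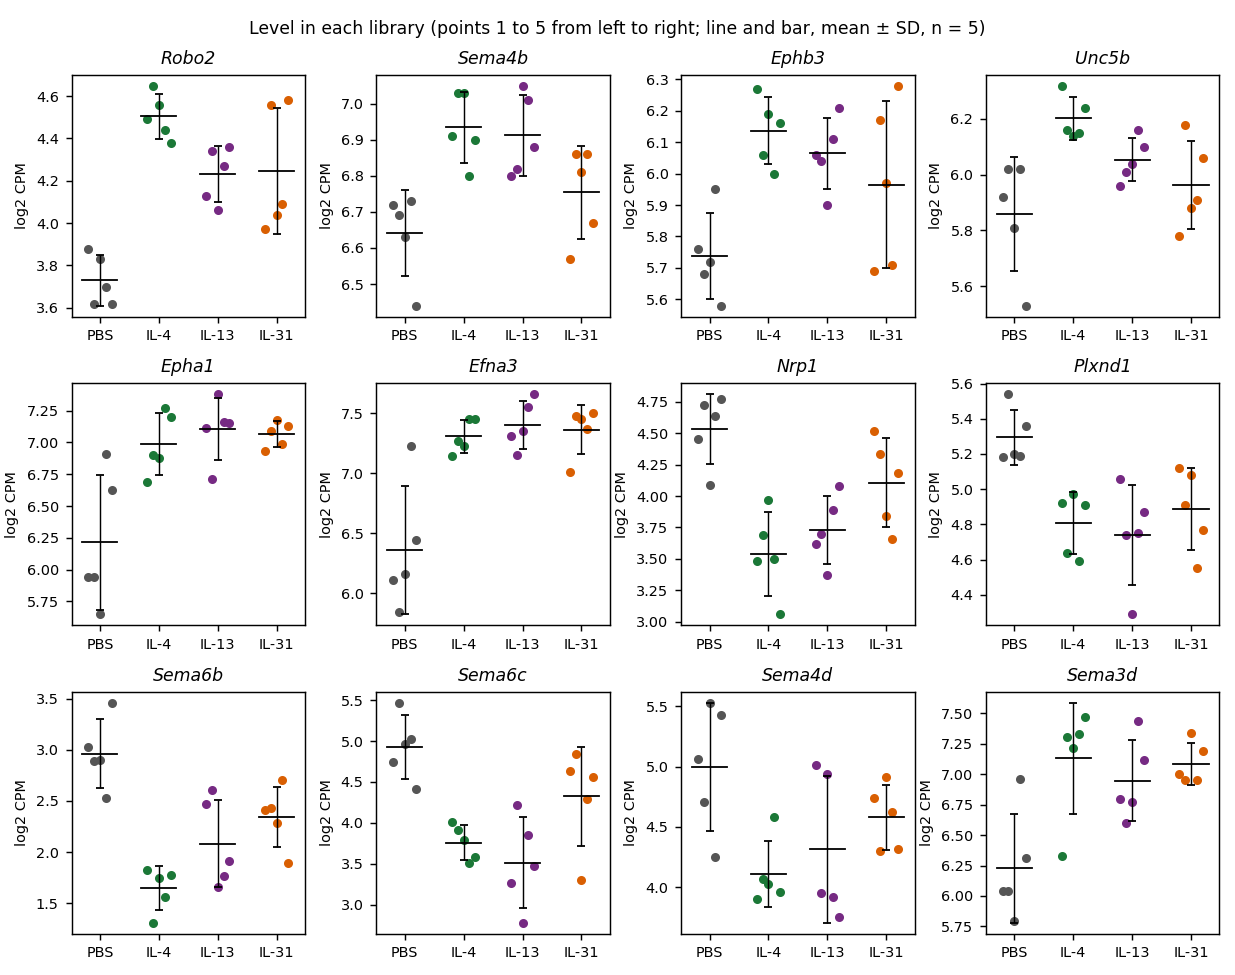
Log2 CPM of 12 members in every library, with a bar at each group mean. Robo2, Sema4b, Ephb3 and Unc5b lie above PBS after IL-4, Nrp1, Plxnd1, Sema6b and Sema6c lie below it, and the Epha1 and Efna3 panels have PBS libraries 1 to 3 as their lowest points.

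None of the 4 netrins was called in the main limma fit (unadjusted p under 0.05 for 2 after IL-4, 1 after IL-13 and 0 after IL-31), and 1 Unc5 receptor was. Ntn4, a laminin-binding netrin of basement membranes, came nearest after IL-4, with non-overlapping groups and a difference of -0.52 ± 0.18 (adjusted p = 0.0526). Ntn4 was called lower after IL-4 with library weights, a replicate block or a filter of log2 CPM at least 1 in at least 10 libraries. With the neutrophil score as a covariate, or without libraries of neutrophil score above 0, it was called lower after IL-4 and IL-13. The netrin differences ranged from -0.61 to 0.10 after IL-4, from -0.49 to -0.13 after IL-13 and from -0.046 to 0.35 after IL-31. Unc5b, a netrin receptor of vessels and other tissues, gave 5.92, 6.02, 5.81, 6.02 and 5.53 log2 CPM in PBS and 6.32, 6.16, 6.14, 6.15 and 6.24 in IL-4, groups that did not overlap. Unc5b was 1.27-fold higher after IL-4 (0.34 ± 0.091, adjusted p = 0.0154), with 0.19 after IL-13 (0.140) and 0.10 after IL-31 (0.5). The IL-4 call held without any single library and without PBS libraries 1 to 3 (0.43, adjusted p = 0.0417). It was lost without libraries of neutrophil score above 0 (0.19, adjusted p = 0.188), which left 2 PBS and 4 IL-4 libraries. The call was also lost with the neutrophil score (0.23, 0.0576) or the endothelial score (0.31, 0.133) as a covariate. Library weights (0.0690) and a fit of only the 2 groups (0.0676) ended it as well. Unc5a, the neuronal paralog, had -0.75 after IL-4 (0.149), and Unc5c had 0.15 (0.654).

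Every call among ephrin ligands and Eph receptors was higher: 6 of 18 after IL-4 (33.3%, against 8.22% of all genes), 5 of 18 after IL-13 (27.8%, against 9.94%) and 4 of 18 after IL-31 (22.2%, against 5.18%). The uncalled members went both ways. Differences above 0 numbered 11, 13 and 12 of 18, and the ranges were -1.13 to 0.95, -0.63 to 1.05 and -0.32 to 1.01. After IL-4 the lowest was Epha7 (-1.13, adjusted p = 0.0724). Ephb2 (-0.59, 0.0927) was called lower after IL-4 with a replicate block in the fit. Efnb2 had 0.47 after IL-4 (0.0520) and 0.30 after IL-13 (0.207). It was called higher after both without PBS libraries 1 to 3. After IL-4 it was also called higher with the suprabasal epidermal or the neutrophil score as a covariate. Ephrins and Eph receptors held 6 of the 11 rises after IL-4, 5 of the 12 after IL-13 and 4 of the 6 after IL-31. Efna3 gave 6.11, 5.84, 6.16, 7.23 and 6.44 log2 CPM in PBS and 7.14, 7.27, 7.23, 7.45 and 7.45 in IL-4. It gave 7.31, 7.15, 7.35, 7.55 and 7.66 in IL-13 and 7.01, 7.48, 7.45, 7.37 and 7.5 in IL-31. PBS library 4 lay within the cytokine values and the other 4 PBS libraries below all of them.

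Efna3 was 1.93-fold higher after IL-4 (0.95 ± 0.18, adjusted p = 0.00239), 2.06-fold after IL-13 (1.05, adjusted p = 0.00172) and 2.01-fold after IL-31 (1.01, adjusted p = 0.0193). Without PBS libraries 1 to 3 these differences were 0.47, 0.57 and 0.53 (adjusted p = 0.113, 0.0840 and 0.604). With the suprabasal epidermal score as a covariate they were 0.56, 0.58 and 0.56 (adjusted p = 0.0506, 0.104 and 0.514). Suprabasal epidermal markers rose in the same samples, 17 of 25 after IL-4 (median 1.15), 20 of 25 after IL-13 (median 1.31) and 17 of 25 after IL-31 (median 1.31), and none fell. Those counts are 68%, 80% and 68%, against 8.22%, 9.94% and 5.18% of all genes called higher.

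Epha1, an Eph receptor of epithelium, gave 5.94, 5.94, 5.65, 6.91 and 6.63 log2 CPM in PBS. It gave 6.69, 6.90, 6.88, 7.27 and 7.20 in IL-4, 7.11, 6.71, 7.38, 7.16 and 7.15 in IL-13 and 6.93, 7.09, 7.18, 6.99 and 7.13 in IL-31. The IL-31 libraries lay above every PBS library, and PBS library 4 fell within the other cytokine groups. Epha1 rose by 0.77 ± 0.19 after IL-4 (adjusted p = 0.00862), 0.89 after IL-13 (adjusted p = 0.00359) and 0.85 after IL-31 (adjusted p = 0.0205). Those differences were, without PBS libraries 1 to 3, 0.22, 0.34 and 0.30 (adjusted p = 0.419, 0.260 and 0.682), and with the suprabasal epidermal score as a covariate 0.20, 0.21 and 0.21 (adjusted p = 0.191, 0.284 and 0.551).

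Efnb1, a transmembrane ephrin, and Ephb6 rose less in each comparison. Efnb1 rose 1.47-fold after IL-4 (0.56 ± 0.12, adjusted p = 0.00419), 1.43-fold after IL-13 (0.51, adjusted p = 0.00586) and 1.36-fold after IL-31 (0.44, adjusted p = 0.0328). Ephb6 rose 1.36-fold (0.45 ± 0.10, adjusted p = 0.00741), 1.41-fold (0.50, adjusted p = 0.00377) and 1.38-fold (0.47, adjusted p = 0.0215). When PBS libraries 1 to 3 were left out, the Efnb1 differences were 0.27, 0.23 and 0.15 and those of Ephb6 0.27, 0.32 and 0.29, none of which passed the test. The IL-31 calls of Efna3, Epha1, Ephb6 and Sema3d were lost without any 1 of PBS libraries 1, 2 and 3 or IL-31 libraries 3 and 5, and that of Efnb1 also without IL-31 library 2 or 4.

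Ephb3, an ephrin-B receptor, gave 5.76, 5.68, 5.72, 5.95 and 5.58 log2 CPM in PBS and 6.27, 6.06, 6.19, 6.0 and 6.16 in IL-4. It gave 6.06, 6.04, 5.90, 6.11 and 6.21 in IL-13 and 5.69, 6.17, 5.97, 5.71 and 6.28 in IL-31. The IL-4 libraries lay above every PBS library, and the IL-31 libraries overlapped both. Ephb3 rose 1.32-fold after IL-4 (0.40 ± 0.11, adjusted p = 0.0143) and 1.25-fold after IL-13 (0.33, adjusted p = 0.0355). The IL-4 value was 0.37 without PBS libraries 1 to 3 (adjusted p = 0.127). That call was also lost with the endothelial score (0.46, adjusted p = 0.0734) or the neutrophil score (0.29, 0.0528) as a covariate and with library weights (0.37, 0.0765). Its IL-13 call ended without PBS library 1, 2, 3 or 5, or IL-13 library 1, 4 or 5. Efna1, the ligand of Epha2, rose after IL-4 (0.39 ± 0.11, adjusted p = 0.0191), and this call held without any single library and without PBS libraries 1 to 3 (0.53, adjusted p = 0.0261). The Efna1 call was lost with the muscle score (0.27, adjusted p = 0.570), the endothelial score (0.37, 0.139) or the neutrophil score (0.34, 0.0550) as a covariate and when only the 2 groups were fitted (0.0957). Efna1 had 0.25 after IL-13 (0.113) and 0.22 after IL-31 (0.240).

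Unc50, which is no guidance receptor, rose after IL-13 (0.40 ± 0.11, adjusted p = 0.0185), a call lost without PBS library 2. Its difference was 0.15 without PBS libraries 1 to 3 (adjusted p = 0.518).

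The comparison of the cytokines with each other tests directly whether their effects on the members differ. No member was called between IL-4 and IL-13, IL-4 and IL-31 or IL-13 and IL-31, and 0 of the 16461 genes were called in limma (0% in each). At an unadjusted p under 0.05 there were 3, 9 and 6 members, 4.84%, 14.5% and 9.68% of 62, against 4.03%, 10.6% and 7.29% of all genes. Sema6b had the smallest p, lower in IL-4 than in IL-31 by -0.70 ± 0.21 (95% interval -1.14 to -0.26, unadjusted p = 0.00366, adjusted p = 0.190). Nrp1 was lower in IL-4 than in IL-31 by -0.57 (interval -0.96 to -0.18, adjusted p = 0.227), and Sema6c lower in IL-13 than in IL-31 by -0.81 (interval -1.38 to -0.24, adjusted p = 0.309). Robo2 was higher in IL-4 than in IL-13 by 0.27 ± 0.12 (interval 0.024 to 0.52, adjusted p = 0.997), with groups that did not overlap. Between IL-13 and IL-31 Robo2 differed by -0.020 (interval -0.27 to 0.23). Groups of 2 cytokines did not overlap for 1 member between IL-4 and IL-13 (0.814% of all genes; higher 0.364%), for 3 between IL-4 and IL-31 (3.91%), 2 higher (2.14%) and 1 lower (1.76%), and for 2 between IL-13 and IL-31 (1.24%), both higher (0.571%) and none lower (0.668%). A call after 1 cytokine and not after another does not show that the member responds differently to them.

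Other genes of the pathway, outside the naming rule, were counted against the shares of all genes called higher (8.22% after IL-4, 9.94% after IL-13, 5.18% after IL-31) and lower (9.63%, 9.8% and 1.2%). Of 47 cytoplasmic effectors of guidance receptors, 4 rose (8.51%) and 5 fell (10.6%) after IL-4, 5 rose (10.6%) and 6 fell (12.8%) after IL-13, and 1 rose (2.13%) and 1 fell (2.13%) after IL-31. After IL-4 and IL-13 these shares lay close to those of all genes. Of 35 other cues and co-receptors, 5 rose (14.3%) and 5 fell (14.3%) after IL-4, 6 rose (17.1%) and 4 fell (11.4%) after IL-13, and 2 rose (5.71%) and 1 fell (2.86%) after IL-31. The medians of the effectors were 0.019, 0.028 and 0.035 and those of the other cues 0.0015, 0.068 and 0.025.

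Pak3, a Rac and Cdc42 effector kinase, rose by 0.69 ± 0.11 after IL-4 (adjusted p = 0.00121), 0.57 after IL-13 (0.00286) and 0.59 after IL-31 (0.0193). Fes, a tyrosine kinase that acts downstream of plexins, fell in each comparison, with -0.68 ± 0.14 (adjusted p = 0.00293), -0.72 (0.00234) and -0.63 (0.0198). Vegfa, the vascular growth factor that binds Nrp1, fell as well, with -1.21 ± 0.20 (adjusted p = 0.00133), -1.13 (0.00193) and -0.81 (0.0273). Limk2, which phosphorylates cofilin, rose by 0.35 ± 0.074 after IL-4 (adjusted p = 0.00426) and 0.40 after IL-13 (0.00221). Ptk7, a Wnt co-receptor, rose by 0.32 ± 0.070 after IL-4 (adjusted p = 0.00508). Dpysl2, the collapsin response mediator of semaphorin signalling, fell by 0.64 after IL-13 (adjusted p = 0.00198). After IL-31 Chl1, an adhesion molecule of the L1 family, rose by 0.84 ± 0.18 (adjusted p = 0.0198) and Plxdc2, a plexin-domain protein, by 1.08 ± 0.28 (adjusted p = 0.0297). Every IL-31 call of these genes was lost without PBS library 2 or IL-31 library 3 or 5, where 0% of all genes were called. With the muscle score as a covariate 0% of all genes were called after IL-4 or IL-31 and 0.00607% after IL-13.

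Nerve-associated markers were given for the same libraries. They stand beside the shares of all genes called higher (8.22%, 9.94% and 5.18%) and lower (9.63%, 9.8% and 1.2%). Of 14 Schwann cell genes 2 rose after IL-4 (14.3%), 2 after IL-13 (14.3%) and 1 after IL-31 (7.14%), and none fell. The list medians were -0.27, -0.36 and -0.21. Of the 5 axonal transcripts 2 fell after IL-4 (40%), 2 after IL-13 (40%) and 0 after IL-31. Basal epidermal markers rose in 4, 1 and 1 of 12 cases (33.3%, 8.33% and 8.33%). Fibroblast markers fell in 3, 3 and 0 of 12 (25%, 25% and 0%). Of 14 neutrophil markers 0 rose and 1 (7.14%), 0 and 0 fell. But their score spanned -1.36 to 3.28 within PBS, -1.75 to 1.59 within IL-4, -1.88 to 2.64 within IL-13 and -2.08 to 2.23 within IL-31. With the neutrophil score as a covariate 19, 22 and 8 members were called, beside 18.4%, 23.9% and 8.79% of all genes.

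**Figure D5:**
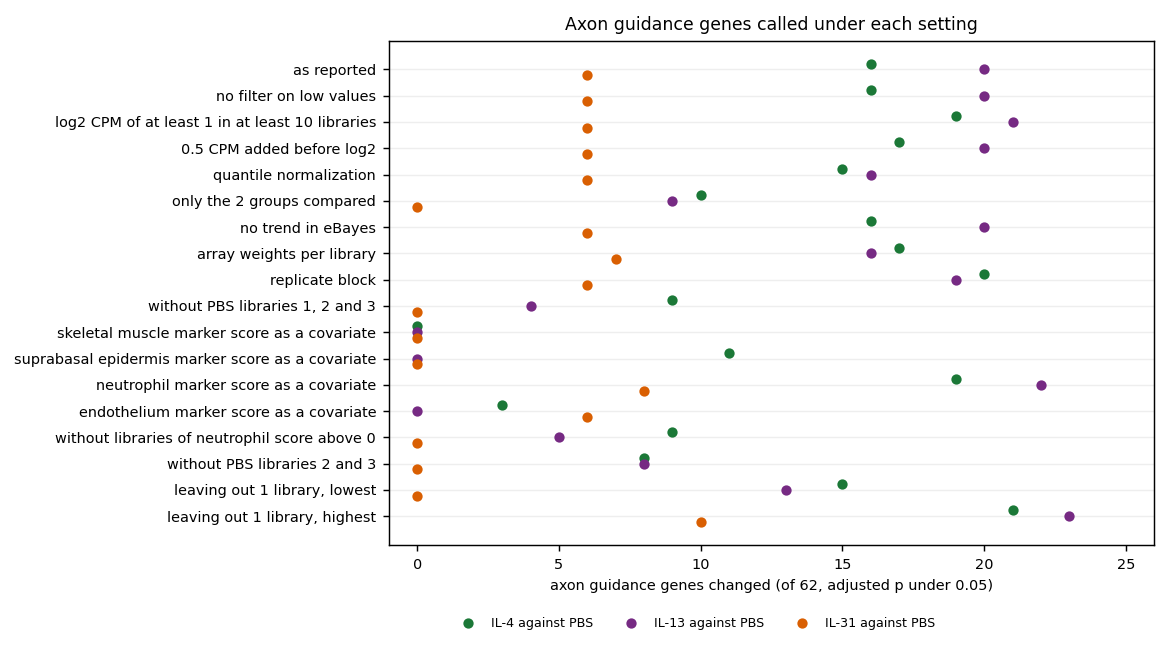
Number of members called changed in each comparison with PBS under each processing choice. The counts of 16, 20 and 6 fell to 9, 4 and 0 without PBS libraries 1 to 3 and to 0 in each comparison with the muscle score as a covariate.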

How the data were processed

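Bulk RNA-seq of ear pinnae gave 20 libraries in 4 groups of 5. The authors deposited 1 table of log2 CPM for 16669 Ensembl genes; edgeR and the build GRCm38 are named in the submitters' processing notes, and aligner and counter were not given in the sources used here. Kits were Qiagen RNeasy Plus and NEBNext Ultra II, per the labels' protocols. The lowest value, -2.684, is an offset of 0.156 CPM, so differences of low genes are understated. Only 75.5 to 93.5% of 200 low values per library were whole reads (within 0.02), so no count test was run.

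Symbols and exon lengths came from GENCODE M21 (16644 identifiers matched) and promoters from RefSeq. Genes of log2 at least 0 in at least 5 libraries were tested with limma 3.58.1 in R 4.3.3 (1 fit of 4 groups, eBayes with trend, two-sided). The same fit was run on simulated data of independent genes, and its results are not given here. Figures used matplotlib 3.10.9, tables pandas 2.3.3 and numpy 2.4.6 in Python 3.11.15. Members and lists were chosen with earlier results of these data known.

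Values in every library are given for Robo2, Nrp1 and, per comparison with PBS, up to 6 called members of smallest adjusted p whose groups did not overlap. Efna3 and Unc5b were added to these, and the Slits and Ntn4 were named, after their values were seen. Other called members are given by their differences, pathway genes as the 5 of smallest adjusted p, and families by the member of highest level.

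Alternatives were other filters, an added 0.5 CPM, quantile normalization, library weights, no trend, a replicate block, only the groups compared, marker scores as covariates and fewer libraries. Whether shared numbers pair the libraries was not settled.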

Additional observations from a re-analysis of the deposited data

Results flagged for a closer look

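Among 92 groups of 5 libraries for the 23 called members, 6 held a library far from the other 4 (Dixon's ratio above 0.71), which is 6.52%, and chance gives about 1 in 20. In PBS, Ephb6 was 7.79 log2 CPM in library 4 and 7.12 to 7.18 in the others, Sema3f was 7.51 in library 1 and 6.91 to 7.01 in the others, and Sema6d was 3.65 in library 1 and 4.42 to 4.55 in the others. In IL-4, Sema3d was 6.33 in library 1 and 7.22 to 7.47 in the others, and Sema4d was 4.58 in library 4 and 3.90 to 4.07 in the others. In IL-31, Efna3 was 7.01 in library 1 and 7.37 to 7.5 in the others.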

How the results depend on the processing

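The 16, 20 and 6 members called after IL-4, IL-13 and IL-31 became 10, 9 and 0 when only the 2 groups compared were fitted, where fewer samples estimate the spread (all genes 7.71%, 6.89% and 0%, from 17.8%, 19.7% and 6.38%). They became 9, 4 and 0 without PBS libraries 1 to 3 (all genes 7.29%, 2.34% and 0%). That setting also rests on values of these data, since those libraries stood apart by their epidermal scores. With the muscle score as a covariate the counts became 0, 0 and 0 (0%, 0.00607% and 0%). The epidermal score gave 11, 0 and 0 (9.48%, 0.0243% and 0%) and the endothelial score 3, 0 and 6 (1.16%, 0% and 4.79%). With 2 further settings, added after the data were seen, the counts became 9, 5 and 0 and 8, 8 and 0. The first left out libraries of neutrophil score above 0 (all genes 8.43%, 3.34% and 0%). It kept 2 PBS, 4 IL-4, 3 IL-13 and 2 IL-31 libraries. The second left out PBS libraries 2 and 3 (8.42%, 6.33% and 0%). Leaving out 1 library gave 15 to 21, 13 to 23 and 0 to 10 (all genes 11.5 to 21.6%, 12.1 to 28.6% and 0 to 18.4%). For IL-31 the count was 0 without PBS library 1, 2 or 3 or IL-31 library 3 or 5 and 10 without PBS library 4, and for IL-13 the 13 came without PBS library 2 or IL-13 library 4. Library weights gave 4 calls between IL-4 and IL-31 (Nrp1, Ntn4, Ntng2 and Sema6b, all lower in IL-4) and 3 between IL-13 and IL-31, the neutrophil score gave 1 in each, and leaving out 1 library gave 0 to 1 between IL-13 and IL-31. The cause of these changes was not tested. The IL-13 difference of Plxnb2 reversed to -0.061 with the epidermal score. The other filters, the added 0.5 CPM and the fit without trend kept all 42 calls, quantile normalization 37 and library weights 35. Some settings also added calls. A filter of log2 CPM at least 1 in at least 10 libraries added Efnb2, Ntn4 and Unc50 after IL-4 and Ephb4 after IL-13. Whether replicate numbers pair the libraries was not settled. Same-number correlations ran from -0.236 to 0.486, over 0.1 in 10 of 30 pairs, and correlations of different numbers were not set beside them. The highest were those of number 2: 0.486 for IL-13 with PBS, 0.452 for IL-31 with PBS and 0.402 for IL-13 with IL-31. With the replicate block 20, 19 and 6 members were called and 41 of the 42 calls were kept. The block added Ephb2, Ntn4, Robo4 and Unc50 after IL-4. Depth limits genes under 0.126 to 0.5 CPM.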
